A study of Mus musculus with 26 samples.

Results

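Genes of genome organization were followed in single blastomeres of the mouse 8-cell embryo, namely Smc3, Smc1b, Rad21 and Stag1 of the cohesin complex, its loader Nipbl, its regulators Wapl, Pds5a and Pds5b, the insulator protein gene Ctcf, and Rif1. The 10 members were chosen by name and found in the gene table by their GENCODE symbols, 10 of the 55487 genes listed there. Each blastomere had been split by scRR-seq, a method in which magnetic beads hold the genomic DNA of a lysed cell while its RNA is taken off in solution, so that RNA levels and DNA replication states come from the same cell. The labels described 26 samples, the RNA and the DNA of 13 cells, and columns for 9 of those cells were analysed here.

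All embryos came from in vitro fertilization with C57BL/6 gametes, carried no transgene or treatment, and were taken apart by hand into single cells. Embryo 1 gave cells 1, 6 and 7, with a percentage replication score (the share of 40-kb bins called replicated) of 3.54%, 0.927% and 0.0039%. Embryo 2 gave cells 2, 3, 5, 6, 7 and 8, with scores of 77.8%, 74.2%, 76.9%, 62.4%, 80.5% and 78.7%. The study placed representative cells of embryo 1 outside S phase, in either G1 or G2/M, and those of embryo 2 in S phase. It describes telling very early from very late S phase as difficult where all bins have similar copy number. Low scores in embryo 1 therefore do not show that its DNA was unreplicated. Cells with library numbers 11 to 17 (embryo 1 cell 1, embryo 2 cells 2 and 3) had been lysed in 3 µl of buffer and are called scRR3, and those numbered 20 to 25 in 1 µl and are called scRR1, which the study describes as biased towards the 3′ ends of transcripts in embryos. Each embryo is 1 biological replicate, so differences between embryos are described with the spread between cells and were not tested. Embryo, replication state and Xist RNA (140 to 181 TPM in embryo 1, at most 0.90 TPM in embryo 2) divided the 9 cells in the same way, and their parts in a difference cannot be told apart.

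Cohesin is a ring of SMC1, SMC3 and RAD21 with an attached SA subunit (STAG1 or STAG2 in somatic cells). It is loaded onto chromatin with the help of NIPBL, extrudes loops until it meets CTCF bound to DNA, and is taken off again by WAPL acting with the PDS5 proteins. Cohesin also holds sister chromatids together from S phase to anaphase. RIF1 is known for delaying origin firing in late-replicating chromatin by recruiting protein phosphatase 1, and for its role in the choice of double-strand break repair. In the cleavage embryo, chromatin loops and domains are still being strengthened and the timing program of replication is being set up.

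Markers of blastomeres were present, but the lists compared do not tell the 8-cell stage from its neighbours. All 9 blastomere markers examined, such as Pou5f1, Dppa3 and Cdh1, had a mean above 1 TPM, and 8 were above 1 TPM in every cell. The exception was Krt8, at 0 in cell 6 of each embryo. Together the 9 markers took 4772 to 4912 TPM per cell in embryo 1 and 3460 to 4547 TPM in embryo 2. Highest among them were Dppa5a (mean 2242 TPM) and Dppa3 (1465 TPM). Marker sums of other cells stayed at or near 0, at most 6.13 TPM for 8 cumulus or granulosa cell genes (Amh, Cyp19a1, Has2, Tnfaip6 and Fshr at 0 in every cell), 1.62 TPM for 5 sperm genes (Tnp1, Tnp2 and Odf1 at 0) and 0.71 TPM for 3 blood cell genes (Hbb-bt at 0).

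RNA levels are given as deposited in TPM, a share of the RNA of a cell that is corrected for transcript length and keeps no read depth. Of the 10 members, 8 were above 1 TPM in all 9 cells (background 52.9% of the 13648 genes with a mean above 1 TPM), the exceptions being Pds5b with 8 cells and Smc1b with 5. Mean levels over the 9 cells ran from Rad21 at 173 ± 62.4 TPM through Rif1 at 126 ± 64.5, Wapl at 87.7 ± 36.9, Pds5a at 62.9 ± 20.4, Ctcf at 46.04 ± 10.1, Smc3 at 32.6 ± 13.2, Nipbl at 15.6 ± 6.53, Stag1 at 14.3 ± 8.19 and Pds5b at 3.86 ± 3.15 to Smc1b at 1.58 ± 1.67 (SD, n = 9 cells). In this order, the within-cell log2 step exceeded its SD over cells from Rad21 to Rif1 (0.52 ± 0.29, higher in 9 of 9 cells), Ctcf to Smc3, Smc3 to Nipbl, Stag1 to Pds5b and Pds5b to Smc1b. Neighbours did not differ beyond their spread for Rif1 and Wapl, Wapl and Pds5a, Pds5a and Ctcf, and Nipbl and Stag1.

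**Figure D1:**
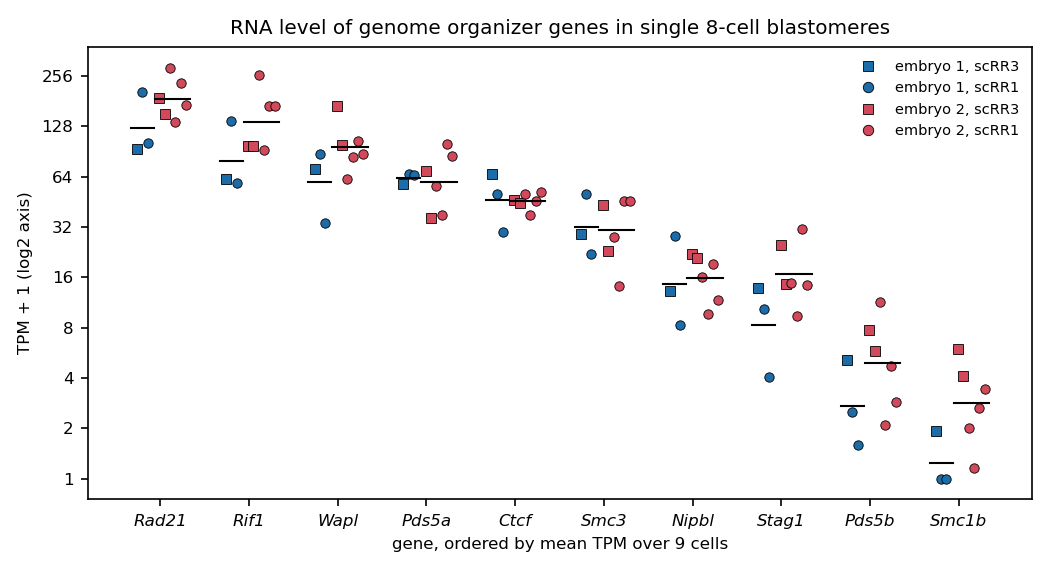
TPM + 1 on a log2 axis for each gene (horizontal axis, ordered by mean TPM) in each of the 9 cells; blue points are embryo 1 and red points embryo 2, squares are scRR3 cells and circles scRR1 cells, and bars are means of log2(TPM + 1) per embryo. Levels span from 173 TPM on average for Rad21 to 1.58 TPM for Smc1b, and the embryos overlap for every gene.

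Between the embryos, no member separated. The members without overlap between the 3 cells of embryo 1 and the 6 of embryo 2 numbered 0 of 10 in the higher direction (background 0.843% of genes) and 0 of 10 in the lower direction (background 2.51%). Differences are given as the mean log2(TPM + 1) of embryo 2 less that of embryo 1, a scale that understates changes of genes with low TPM. Smc1b (1.18) and Stag1 (1.01) were past 2-fold and higher in embryo 2, 2 of 10 members against 7.69% of all genes, and 0 of 10 were past 2-fold and lower, against 10.7%. The difference lay above 0 for 7 of 10 members (background 47.6%) and exceeded the pooled SD between cells for 5, namely Smc1b, Stag1, Rif1, Wapl and Rad21 (background 9.36%), while 0 lay below minus that SD (background 14.1%). The median difference was 0.64 over the members and -0.04 over all genes tested. It was 0.36 without embryo 1 cell 7, in which most members were low, and 0.87 without embryo 1 cell 6. The mitochondrial share of TPM was 4.28% to 6.77% in embryo 1, 5.98% and 6.82% in the scRR3 cells of embryo 2 and 9.31% to 18.2% in its scRR1 cells. With TPM rescaled without mitochondrial genes the median over members was 0.73, and the differences near 0 of Smc3, Pds5a and Ctcf became 0.04, 0.01 and 0.07.

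Single cells decided several of these calls. Of the 5 members beyond the SD, only Smc1b (1.03) still exceeded that SD when embryo 1 cell 7 was left out, whereas Stag1 was then at 0.49, Wapl at 0.28, Rif1 at 0.57 and Rad21 at 0.44. Without embryo 1 cell 1, Smc1b separated the embryos (1 of 10 members, background 4.15%). Without embryo 1 cell 6, Rad21 and Rif1 did (2 of 10, background 2.72%). Past 2-fold and higher were 1 member without embryo 1 cell 7 (background 6.87%), 1 without embryo 2 cell 7 (background 8.10%) and 0 without embryo 2 cell 2 (background 7.49%).

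Within the protocols the picture was mixed. Smc1b, Rad21, Stag1, Wapl, Pds5b and Rif1 had a higher mean in embryo 2 within both scRR3 and scRR1, 6 of 10 members against 22.9% of genes, and Pds5a had a lower one in both, 1 of 10 against 28.9%. The median over members was 0.56 within scRR3 and 0.53 within scRR1. Within scRR3, where 1 cell of embryo 1 stands against 2 of embryo 2, 7 members were higher in embryo 2 without overlap (background 26.9%) and 1, Ctcf, was lower (background 37.2%). Within scRR1, with 2 and 4 cells, only Smc1b was higher without overlap (1 of 10, background 6.00%) and 0 were lower (background 8.68%).

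**Figure D2:**
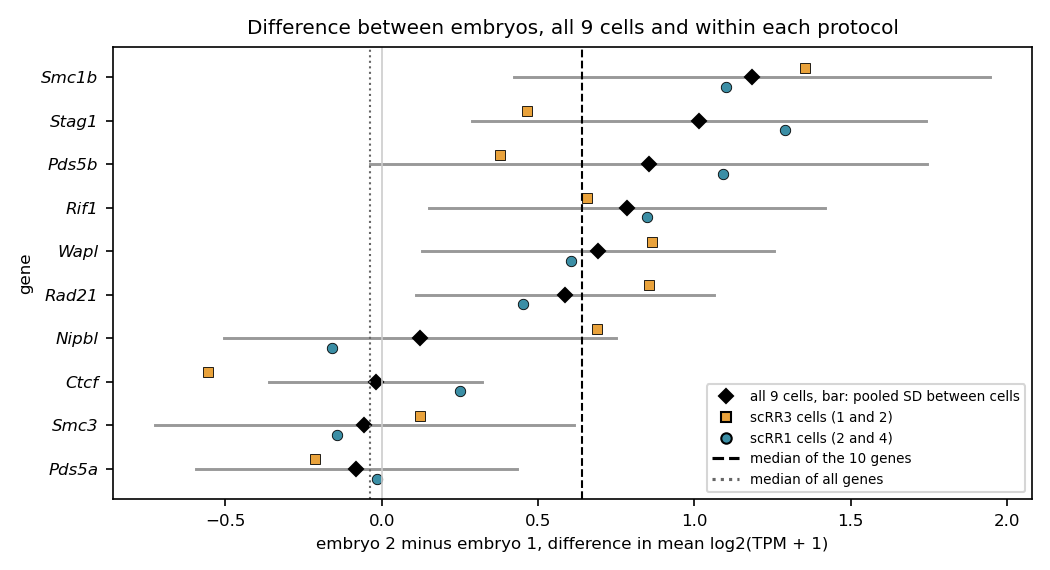
Difference of embryo 2 from embryo 1, in log2(TPM + 1) averaged over cells, for each gene: diamonds are all 9 cells with bars of 1 pooled SD between cells, squares the scRR3 cells (1 and 2 cells) and circles the scRR1 cells (2 and 4 cells). The dashed line is the median of the 10 genes (0.64) and the dotted line that of all genes (-0.04); Ctcf, Smc3 and Nipbl change sign between the protocols.

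The ring genes differed in level and in how the embryos compared. Rad21 (mm10 chr15:51962240-51991747, minus strand), the kleisin that closes the ring and is cut by separase at anaphase, was at 92.4, 204 and 101 TPM in cells 1, 6 and 7 of embryo 1, whereas embryo 2 ranged from 134 to 287 TPM (median 179). Embryo 1 cell 6 lay inside the range of embryo 2, and the other 2 cells lay below it. The difference was 0.59 with a pooled SD of 0.48, and without embryo 1 cell 6 the embryos no longer overlapped for this gene.

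Smc3 (chr19:53600398-53645833, plus strand), the SMC subunit whose acetylation locks cohesin on chromatin, was at 28.0, 49.8 and 21.02 TPM in the 3 cells of embryo 1, whereas embryo 2 ranged from 13.1 to 45.1 TPM (median 34.7). The highest and the lowest of the 9 cells thus belonged to different embryos, with cell 6 of embryo 1 at the top and cell 6 of embryo 2 at the bottom. The difference of -0.06 was far below the pooled SD of 0.67.

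Smc1b (chr15:85064689-85131964, minus strand) encodes the SMC1 subunit of meiotic cohesin, which is made in the oocyte. It was at 0.93, 0 and 0 TPM in the 3 cells of embryo 1, whereas embryo 2 ranged from 0.15 to 4.97 TPM (median 2.05). Cells 2 and 3 of embryo 2, both scRR3, were highest, and its lowest cell fell below embryo 1 cell 1. The mitotic counterpart Smc1a had a higher TPM than Smc1b in all 9 cells, with a log2 ratio of Smc1b to Smc1a between -4.23 and -0.86.

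Stag1 (chr9:100597798-100959375, plus strand), the SA subunit tied to long-lived cohesin at CTCF sites and telomeres, was at 12.8, 9.38 and 3.03 TPM in the 3 cells of embryo 1, whereas embryo 2 ranged from 8.36 to 30.3 TPM (median 13.7). Cells 7 and 2 of embryo 2 were highest, and the lowest cell of embryo 2 lay below 2 of the 3 cells of embryo 1. The difference was 1.01 with a pooled SD of 0.73, 0.46 within scRR3 and 1.29 within scRR1, and it was 0.49 without embryo 1 cell 7.

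Stag1 was below Stag2 in every cell. Stag2, its X-linked paralog, was at 244, 393 and 158 TPM in the 3 cells of embryo 1, whereas embryo 2 ranged from 52.7 to 226 TPM (median 85.5), and the overlap between embryos came from embryo 2 cell 7 alone. Stag3, the meiotic SA subunit, was at 23.6, 9.22 and 13.7 TPM in the 3 cells of embryo 1, whereas embryo 2 ranged from 9.16 to 136 TPM (median 59.7). The log2 ratio of Stag1 to Stag2 was -4.15, -5.25 and -5.30 in embryo 1 and ran from -2.86 to -1.40 in embryo 2.

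Among the 8 within-cell ratios examined, this alone showed no overlap between embryos, and the share over other gene pairs was not computed. The ratio was higher in embryo 2 by 2.46 on the log2 scale with a pooled SD of 0.57, by 2.09 within scRR3 and by 2.65 within scRR1, and by 2.26 to 2.84 with any 1 cell left out. As shares of the summed TPM of these 3 genes, Stag1 took 1.73% to 4.58% in embryo 1 and 6.58% to 18.1% in embryo 2. Stag2 took 87.0% to 95.5% and 41.5% to 80.7%, and Stag3 2.24% to 8.42% and 7.76% to 52.0%. Genes of chromosome X differed in the same direction as Stag2. Their median difference was -0.51 over 433 genes, and 29.1% of them were past 2-fold and lower in embryo 2. How much of the shift of Stag2 (-1.45) goes with its chromosome was not tested. With protein-coding transcripts alone the difference of Stag1 was 0.47, and the ratio to Stag2 was not recomputed on them.

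**Figure D3:**
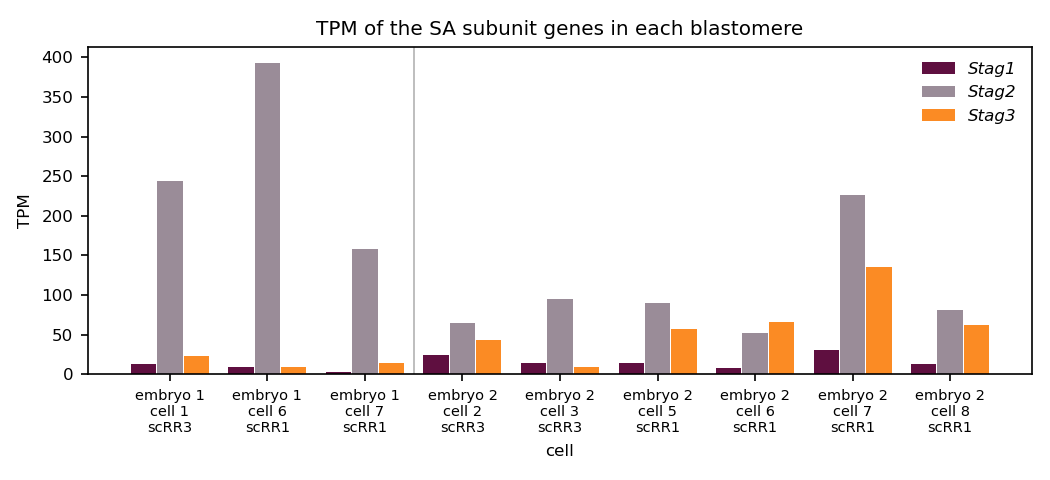
TPM (vertical axis, linear from 0) of Stag1, Stag2 and Stag3 in each of the 9 cells, with the embryo, cell and protocol below each group of bars. Stag2 is the highest bar in all cells of embryo 1 (158 to 393 TPM), while Stag3 reaches 136 TPM in embryo 2 cell 7 and exceeds Stag2 in embryo 2 cell 6.

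Among loading and release genes, Wapl was above Nipbl in every cell. Nipbl (chr15:8290617-8444463, minus strand), the loader and the motor partner of loop extrusion, was at 12.3, 27.2 and 7.30 TPM in the 3 cells of embryo 1, whereas embryo 2 ranged from 8.68 to 21.03 TPM (median 16.7). Both the lowest and the highest of the 9 cells were in embryo 1, and the difference of 0.12 was within the pooled SD of 0.63. Wapl (chr14:34673928-34747983, plus strand), which opens the ring and frees cohesin, was at 70.2, 87.0 and 32.6 TPM in the 3 cells of embryo 1, whereas embryo 2 ranged from 60.6 to 168 TPM (median 92.2).

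Embryo 1 cell 7 was the lowest cell for Wapl and embryo 2 cell 2 the highest, and the other 2 cells of embryo 1 lay inside the range of embryo 2. The difference for Wapl was 0.69 with a pooled SD of 0.56, and 0.28 without embryo 1 cell 7. Nipbl stood below Wapl in all 9 cells, with a log2 ratio of Nipbl to Wapl of -2.41 ± 0.50 (SD, n = 9 cells). Against its loading partner Mau2, Nipbl had a log2 ratio of 0.73 ± 0.73 and was the higher of the pair in 8 of 9 cells.

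Pds5a (chr5:65605721-65698273, minus strand) and Pds5b (chr5:150673739-150810690, plus strand) encode the paired scaffold proteins on which both release by WAPL and protection by acetylation depend. Pds5a was at 57.1, 65.2 and 64.7 TPM in the 3 cells of embryo 1, whereas embryo 2 ranged from 35.2 to 99.0 TPM (median 61.8). The 3 cells of embryo 1 lay together in the middle of the wide range of embryo 2, and the difference was -0.08. Pds5b was at 4.14, 1.50 and 0.58 TPM in the 3 cells of embryo 1, whereas embryo 2 ranged from 1.09 to 10.4 TPM (median 4.25), with cell 5 of embryo 2 highest. Pds5a exceeded Pds5b in all 9 cells, by 3.91 ± 1.06 on the log2 scale (SD, n = 9 cells).

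Ctcf (chr8:105636568-105682922, plus strand), the zinc finger protein that sets the ends of loops, varied least. It was at 65.6, 49.3 and 28.9 TPM in the 3 cells of embryo 1, whereas embryo 2 ranged from 36.8 to 50.7 TPM (median 45.1), so the whole range of embryo 2 lay inside that of embryo 1. The pooled SD on the log2 scale was 0.34, the smallest of the members, whose median was 0.629 against 0.851 over all genes and 0.631 over the 7216 genes above 1 TPM in every cell. The difference between embryos was -0.02, and it was -0.56 within scRR3 and 0.25 within scRR1.

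Rif1 (chr2:52072832-52122383, plus strand) was at 60.9, 137 and 57.7 TPM in the 3 cells of embryo 1, whereas embryo 2 ranged from 91.2 to 259 TPM (median 132). Embryo 1 cell 6 lay within the range of embryo 2 and the other 2 cells lay below all of it. The difference was 0.78 with a pooled SD of 0.63, and it was 0.66 within scRR3 and 0.85 within scRR1. Against Ctcf, the log2 ratio of Rif1 was -0.11, 1.45 and 0.97 in embryo 1 and 1.08 to 2.37 in embryo 2.

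The members shared their low cells. Cell 6 of embryo 2, which had the lowest replication score of its embryo, was the lowest cell of embryo 2 for 8 of 10 members (all but Wapl and Pds5a) against 21.3% of all genes. With each cell centred on its median this count was 5, and no share over all genes is given for it. Embryo 1 cell 7 was the lowest of embryo 1 for 7 of 10 members, against 39.6% of genes. These cells also had the fewest genes detected, 11088 in embryo 1 cell 7 and 11058 in embryo 2 cell 6 against 11185 to 13319 in the others, and embryo 2 cell 6 had 1264 bins without data against 107 to 181 in the rest of its embryo. The part of library quality in the low levels was not tested. The median deviation of the members from their own means was -0.93 in embryo 1 cell 7 and -0.59 in embryo 2 cell 6, where the median over all genes was -0.25 and -0.31. Without embryo 2 cell 6, Smc1b and Stag1 (2 of 10 members, background 1.75%) were higher in embryo 2 without overlap.

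Over the 9 cells, Pearson's r of log2(TPM + 1) was positive in 44 of the 45 pairs of members, with a median of 0.44, where all pairs of the 7216 genes above 1 TPM in every cell had a median of 0.06 and 55.7% were positive. After centring each cell, 40 of the 45 were positive with a median of 0.33, where 50% of all pairs of the 7216 genes were positive with a median of -0.000. The highest r was 0.93 for Rad21 and Rif1, followed by 0.82 for Stag1 and Wapl and 0.80 for Smc3 and Pds5a. These values describe 9 cells that share 2 embryos and 2 protocols. Among those 7216 genes, the patterns most like Ctcf were those of Rsl1d1 (r = 0.94), Ppcdc (0.93) and Brk1 (0.92), those most like Rad21 were Zbtb10 (0.96), Naalad2 (0.96) and Rabep1 (0.94), and those most like Rif1 were Purb (0.97), Ppil4 (0.97) and 2900097C17Rik (0.96). With 9 cells such values are reached easily, as the 95th percentile of r over all these genes was 0.67, 0.68 and 0.69 for Ctcf, Rad21 and Rif1.

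Between the protocols, the members as a set differed about as much as all genes did. By the study's methods, scRR3 and scRR1 differ in cDNA purification and PCR cycles as well as in lysis volume. No effect of lysis volume alone can be read from these cells. The scRR3 minus scRR1 difference had a median of 0.30 over the members and 0.29 over all genes. Of the members, 0 of 10 separated the protocols in either direction (background 6.13% higher and 1.24% lower in scRR3), 1 of 10, Smc1b, was past 2-fold and higher in scRR3 (1.12, background 16.1%), and 0 were past 2-fold and lower (background 4.67%). Rif1 (-0.67), Rad21 (-0.37) and Pds5a (-0.31) had lower means in scRR3 within both embryos. Smc1b, Pds5b (0.90), Wapl (0.56) and Stag1 (0.55) had higher means in scRR3 within both.

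Gene TPM are sums over annotated transcripts, and the members differed in what those sums hold. Nipbl has 1 annotated transcript. For Rad21, Ctcf and Smc3 a single full-length coding transcript took a mean of 99.8%, 95.7% and 91.0% of the gene's TPM per cell. For Rif1 the longest coding transcript, of 8509 bases, took 54.0% ± 22.5 (SD, n = 9 cells), and in embryo 2 cell 5, the cell with the highest Rif1 level, it was at 65.2 TPM while a noncoding transcript of 822 bases was at 90.2 TPM.

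For Wapl the leading transcript was a coding one of 1820 bases with 35.8% ± 23.2, and the longest coding one, of 6351 bases, was above 1 TPM in all 9 cells at 6.45 to 34.0 TPM. The longest coding transcript of Pds5a, of 8934 bases, exceeded 1 TPM in 0 of 9 cells, and one of 2725 bases led with 40.9%. Stag1 had the lowest coding share, 49.5% of its TPM summed over cells, and its leading transcript is a noncoding processed transcript of 3857 bases. The median coding share was 79.4% over the 8407 coding genes that also have a transcript of another type.

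With protein-coding transcripts alone, the difference between embryos was 1.33 for Wapl and 0.47 for Stag1, and Wapl was the 1 member past 2-fold, with Smc1b at 0.83. The coding sum of Wapl includes short transcripts, such as those of 1820 and 479 bases. On the longest coding transcript the difference was 0.35 for Wapl. For Stag1 it was -0.73, with that transcript above 1 TPM in 2 of 9 cells. In embryo 2 cell 2, the cell with the highest Smc1b level, the coding transcript held 0.37 of its 4.97 TPM. Overlapping genes are annotated at Ctcf (Agrp on the opposite strand, 9.35 TPM on average), Stag1, Pds5a, Pds5b and Smc1b, and reads of overlapping genes may have been shared between them.

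**Figure D4:**
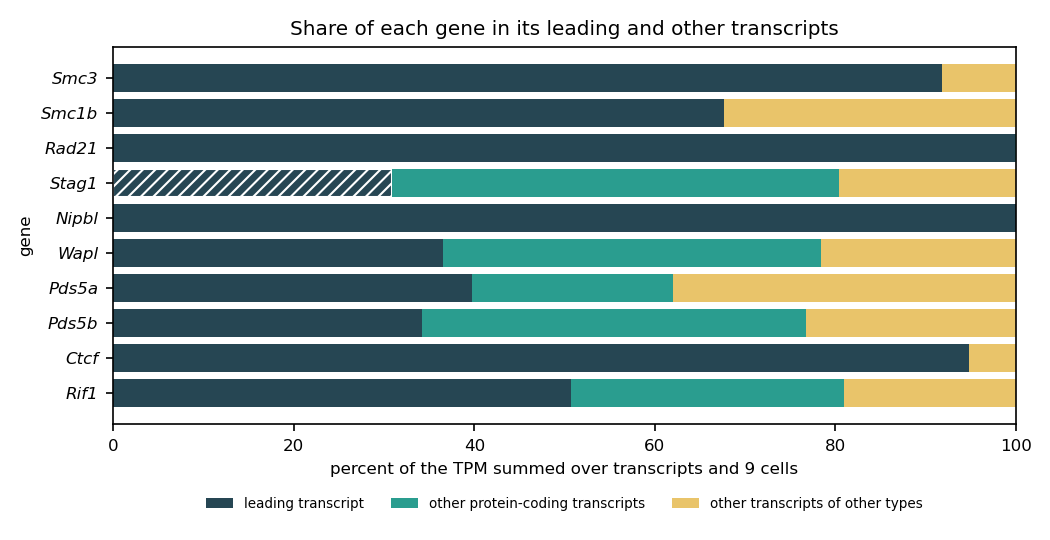
Percent of each gene's TPM, summed over transcripts and 9 cells, in its leading transcript (dark; hatched where it is noncoding), in other protein-coding transcripts and in transcripts of other types. Nipbl, Rad21, Ctcf and Smc3 rest on 1 transcript, while Stag1 has a coding share of 49.5%.

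The loci of the members were replicated in most cells of embryo 2. A gene was called replicated when the mean state of its 40-kb bins was above 0. In all cells of embryo 2 other than cell 6, all 10 members were replicated, and no share over all genes is given for those cells. Across all 6 cells 8 of 10 members were replicated, against 75.5% of the 11091 expressed genes placed in the table, so that share is near the background. In cell 6 the 3 bins of Smc1b and the 5 bins of Pds5b were unreplicated, and 8 of 10 members were replicated there against 81.7% of genes.

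The borders of replicated DNA in cell 6 ran through a pair of members. For Nipbl 3 of 5 bins were replicated, and for Rif1 2 of 3, with the bin of its start unreplicated. In embryo 1 the sole member with bins called replicated was Pds5a in cell 6, with 2 of 3. The calls in embryo 1 do not tell G1 from G2/M, so they do not show that the other loci were unreplicated. Smc1b at 0.15 TPM and Pds5b at 1.09 TPM had their lowest levels of embryo 2 in cell 6, where they were unreplicated. Cell 6 was also the lowest of embryo 2 for 6 members called replicated there, of which Nipbl and Rif1 were replicated in part of their bins. A link between these levels and the state of the locus was not tested.

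Within 2000 kb on either side, surroundings differed between members. Around Ctcf 86.1% of bins were replicated in all 6 cells, and around Stag1 and Pds5a 77.2% each. Around Nipbl this was 27.3% and around Rad21 40.4%, although every bin around Nipbl was replicated in at least 4 of 6 cells. No share over the windows of other genes was computed. The windows of Rad21 and Rif1 held bins replicated in 0 of 6 cells, with the nearest bin unreplicated in at least 2 cells at 600 kb from the start of Rad21 and 1440 kb from that of Rif1. Around Pds5a and Pds5b no bin was unreplicated in more than 1 cell. The window of Pds5b was cut short, however, with its last bin at 1080 kb and 78 bins against 101 for Pds5a.

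**Figure D5:**
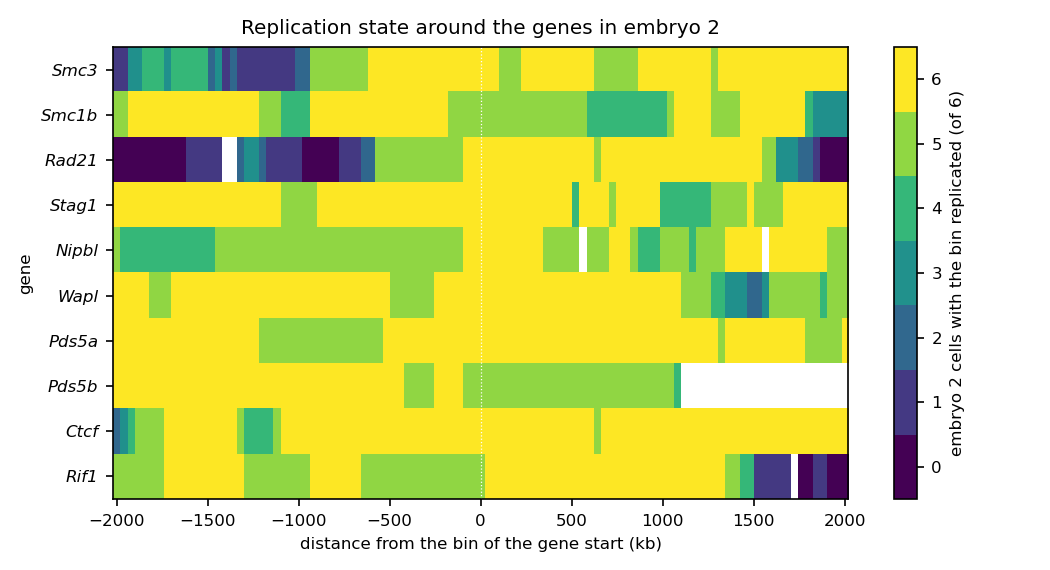
Number of embryo 2 cells (color, 0 to 6) in which each 40-kb bin was replicated, by distance in kb from the bin of the gene's start; negative distances point to lower coordinates, and white marks bins that were absent from the table or without a state. All rows are at 5 or 6 cells at the start, and only Rad21 and Rif1 reach 0 cells within 2000 kb.

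Promoters are shown because several members shared letters at their start sites. RefSeq promoters (GRCm38.p6, the assembly also called mm10), from 250 bases before to 50 bases after each start, were given for 7 of 10 members, the others being Rif1, Rad21 and Nipbl. Their median GC content was 73.7% against 52.7% over all 32851 promoters, and the median number of CG dinucleotides was 41 against 7. Capitals mark matches on either strand to GCCATTTT (a YY1-type motif), GCGCANGC (NRF1-type), AGGGGGCG (CTCF-type), TTCCCGC (E2F-type), TCTCGCGA and ATTGG (an inverted CCAAT box). Matches of GCGCANGC overlap each other in Pds5b, as do those of TCTCGCGA in Smc1b, and the motifs were chosen after the sequences had been read. The sequences run 5′ to 3′ on the strand of the gene.
Ctcf, chr8:105636288-105636587, plus strand: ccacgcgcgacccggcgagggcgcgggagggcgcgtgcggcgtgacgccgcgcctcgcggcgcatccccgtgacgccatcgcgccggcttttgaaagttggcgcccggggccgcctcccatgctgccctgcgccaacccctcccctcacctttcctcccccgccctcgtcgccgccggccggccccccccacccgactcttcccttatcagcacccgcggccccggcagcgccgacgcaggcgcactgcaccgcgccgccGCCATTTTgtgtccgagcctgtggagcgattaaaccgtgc
Smc3, chr19:53600146-53600445, plus strand: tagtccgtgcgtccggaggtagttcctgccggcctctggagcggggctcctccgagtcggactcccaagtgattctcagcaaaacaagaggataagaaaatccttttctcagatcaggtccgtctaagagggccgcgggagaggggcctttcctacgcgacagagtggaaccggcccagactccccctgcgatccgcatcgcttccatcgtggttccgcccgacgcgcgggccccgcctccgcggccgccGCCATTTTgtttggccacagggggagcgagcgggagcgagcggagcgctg
Pds5b, chr5:150673577-150673876, plus strand: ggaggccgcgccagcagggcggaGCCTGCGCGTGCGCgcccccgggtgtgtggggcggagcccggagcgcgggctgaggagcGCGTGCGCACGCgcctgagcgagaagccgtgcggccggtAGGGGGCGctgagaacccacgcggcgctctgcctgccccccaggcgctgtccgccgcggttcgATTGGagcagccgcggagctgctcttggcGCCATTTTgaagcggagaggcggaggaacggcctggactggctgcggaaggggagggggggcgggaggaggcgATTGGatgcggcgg
Smc1b, chr15:85131908-85132207, minus strand: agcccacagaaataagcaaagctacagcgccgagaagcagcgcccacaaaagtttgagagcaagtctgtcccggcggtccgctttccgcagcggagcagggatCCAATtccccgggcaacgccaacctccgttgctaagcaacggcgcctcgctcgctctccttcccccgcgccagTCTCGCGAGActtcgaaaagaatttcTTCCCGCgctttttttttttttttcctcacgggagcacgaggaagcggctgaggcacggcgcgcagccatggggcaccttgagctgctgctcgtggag

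GCCATTTT was found in Ctcf, Smc3, Pds5b and Stag1, 4 of the 7 promoters, and in 1.54% of all promoters. It began 10 bases downstream of the RefSeq start in Ctcf, at the start in Smc3 and 37 bases upstream of it in Pds5b. Around it Ctcf and Smc3 shared a run of 16 bases, gccgccGCCATTTTgt, which was found in 3 of the 32851 promoters, Ctcf and Smc3 among them. Since the run was picked from the promoters of Ctcf and Smc3, its rarity is no test. The RNA of both genes was above 1 TPM in all 9 cells with differences between embryos near 0 (-0.02 and -0.06), whereas Pds5b and Stag1, which also hold GCCATTTT, were at 3.86 and 14.3 TPM with differences of 0.85 and 1.01.

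GCGCANGC was found in Pds5b, Stag1 and Wapl (9.95% of all promoters), and TTCCCGC in Pds5a, Stag1 and Smc1b (4.60%). AGGGGGCG was found in Pds5b (6.07% of all) and TCTCGCGA in Smc1b (0.995%), each in none of the other 6 promoters given. ATTGG was found in Pds5b, Stag1, Wapl and Smc1b (37.4% of all), in Smc1b only as CCAAT on the strand of the gene, which is not inverted. A match describes letters and was not tested as a binding site.

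Other genes of these pathways gave the setting. Of 51 genes in 8 lists, 50 were found and 46 had a mean above 1 TPM. Of these 46, 0 separated the embryos in either direction (background 0.843% higher and 2.51% lower). Past 2-fold were 2 higher in embryo 2 (background 7.69%) and 2 lower (background 10.7%). The median difference was 0.11. Higher were Stag3 (1.69 with a pooled SD of 1.11, but -0.21 within scRR3) and the condensin II gene Ncapg2 (1.16 with a pooled SD of 0.55). Lower were Stag2 and the B-type lamin gene Lmnb2 (-1.05 with a pooled SD of 1.10).

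By list, 4 of 5 further cohesin subunits had a mean above 1 TPM, as did the loading gene Mau2 at 8.95 TPM. For acetylation, protection and removal it was 9 of 10, led by the separase inhibitor gene Pttg1 at 225 TPM and the kinase gene Plk1 at 109 TPM. The deacetylase gene Hdac8 was listed at 0 in every cell. All 8 condensin genes were above 1 TPM on average, led by Smc4 at 70.5 TPM and Ncaph2 at 51.3 TPM.

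The SMC5/6 complex, a relative of cohesin in DNA repair, had 6 of 7 genes above 1 TPM on average, with Nsmce4a at 554 TPM and Smc6 at 92.7 TPM, and Eid3 was listed at 0 in every cell. Of CTCF's relative and cofactors 5 of 6 were above 1 TPM on average, led by Yy1 at 65.6 TPM and Zfp143 at 46.8 TPM. RIF1 partners found numbered 7 of 8, all above 1 TPM on average, and the phosphatase genes Ppp1cc (341 TPM) and Ppp1cb (143 TPM) led them. All 5 nuclear lamina genes were above 1 TPM on average, with the lamin B receptor gene Lbr at 119 TPM and Lmnb1 at 30.2 TPM.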

How the data were processed

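Per the labels and the study's methods, the authors set scRR-seq-RNA reads to a common number, aligned them to mm10 with Hisat, and deposited TPM per gene and per transcript estimated by RSEM with GENCODE M25, 1 column per cell. From scRR-seq-DNA they deposited a score per 40-kb bin (1 replicated, -1 unreplicated, 0 no data), called by AneuFinder after alignment with BWA 0.7.17-r1188 (version per the submitters' processing notes). Neither keeps read depth, so no counting interval or floor was computed, and SDs over cells give the precision.

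All 9 RNA columns name embryo 1 cell 7 and were matched to samples by the closing number of the title. In each of the 3 tables, 14 columns without a label of this series were not used. The protocol of a cell came from the study's sample list. Genes were placed with GENCODE M21 (55141 of 55487 matched) and promoters came from RefSeq. The reference set was the 13648 genes with a mean above 1 TPM.

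The members, lists and comparisons were chosen with earlier results of these data known. By the naming rule, all members are reported, and of each pathway list the genes past 2-fold or without overlap, the 2 highest by mean TPM and those at 0. An item under this rule is not reported here. Analyses used Python 3.11.15, numpy 2.4.6, pandas 2.3.3 and matplotlib 3.10.9, with a pseudocount of 1, and the summary statistics were tested on simulated data. No p-value was computed, since each embryo is 1 replicate.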

Additional observations from a re-analysis of the deposited data

Results flagged for a closer look

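The log2 ratio of Stag1 to Stag2 in embryo 2 cell 2 was -1.40, while the other 5 cells of embryo 2 lay between -2.86 and -2.50. Its gap to the nearest cell was 0.758 of the range of the 6 cells, above the 95% critical value of Dixon's test for 6 values. Of the 18 sets of 6 values examined this way, 1 exceeded the limit, and chance alone would give about 0.9 (1 in 20).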

How the results depend on the processing

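No paired analysis was possible because each group is 1 embryo and the cell numbers do not pair blastomeres of different embryos. The median embryo difference over the members stayed above 0 under all 15 alternatives, from 0.36 to 0.87 with any 1 cell left out. The sign held under all 15 for Smc1b, Rad21, Stag1, Wapl, Pds5b and Rif1, but under 13 for Nipbl, 12 for Pds5a, 10 for Smc3 and 8 for Ctcf, whose differences are near 0. The longest coding transcript alone is not among the 15. On it the difference was -0.73 for Stag1 and -0.05 for Pds5b, whose transcripts exceeded 1 TPM in 2 and 1 of 9 cells. It stayed above 0 for Smc1b (0.83), Rad21 (0.60), Rif1 (0.43) and Wapl (0.35). Members higher in embryo 2 without overlap numbered 7 within scRR3 and 1 within scRR1, in place of 0, and 0 to 2 with any 1 cell left out, and 1 was lower without overlap within scRR3. Members past 2-fold and higher numbered 1 with protein-coding transcripts alone (Wapl; an alternative chosen after seeing the data) and 1 within scRR3 (background 11.6%), in place of 2, but 3 within scRR1 (12.9%) and 3 with a pseudocount of 0.1 (16.2%), and 0 to 3 with any 1 cell left out. The fewer cells compared within a protocol make separation easier, and other causes were not tested. With a pseudocount of 0.1 the difference of Smc1b was 2.92. The median protocol difference of 0.30 was 0.10 within embryo 1, 0.17 within embryo 2 and 0.08 after centring. Scaling moved the median of all genes by less than 0.1. Without a filter on low values the backgrounds shrank, to 0.223% for higher and 0.715% for lower without overlap and the shares past 2-fold were 3.31% and 4.49% over genes above 1 TPM in every cell. By the mean state of their bins 8 members were replicated in all 6 cells of embryo 2, 7 by the bin of the start and 6 with every bin required, and 10 without cell 6. Of these counts, only that of 8 has a share over all genes beside it (75.5%).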
